A study of Mus musculus with 6 samples.

Results

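The genes described here are 44 histone lysine demethylases, histone lysine methyltransferases and core subunits of their complexes, chosen by gene name from the 34745 genes of the deposited expression table: LSD and JmjC demethylases with their PHF relatives, the H3K4 methyltransferases with their relatives and shared subunits, Polycomb repressive complex 2, and the H3K9 methyltransferases. All 44 names were found, and 43 of them passed the expression filter. *Kdm4d*, with 11 counts over all libraries, did not pass and was not tested.

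RNA-seq was carried out on cardiac fibroblasts taken from the left ventricle of KDM5B-KO mice and their WT littermates on Day 7 after myocardial infarction (MI), and each genotype gave 3 libraries, named KO-1 to KO-3 and WT-1 to WT-3. All mice in both groups had an infarct made by ligation of the left anterior descending artery, were male and were 8 to 10 weeks old. The labels set the groups apart by genotype alone, and the comparison asks how the transcripts of fibroblasts after MI differ when KDM5B is disrupted. In the knockout, made with CRISPR/Cas9 on a C57BL/6 background, part of the *Kdm5b* sequence that encodes the catalytic JmjC domain is deleted and the reading frame is shifted. No tissue-specific driver is described for the deletion, so that all cell types of these hearts carry it. The labels do not say whether each library came from a separate mouse, and the p-values measure only the spread between these libraries.

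Methyl groups on histone H3 mark the state of a gene. Trimethylation of lysine 4 (H3K4me3) lies at active promoters and is written by the KMT2 and SETD1 enzymes with a shared set of core subunits, H3K27me3 is written by EZH1 or EZH2 within Polycomb repressive complex 2 and keeps genes silent, and H3K9 methylation, written by SUV39H, SETDB1 and EHMT enzymes, marks heterochromatin and silenced genes. Demethylases of the LSD and JmjC families take these groups off again, and KDM5B belongs to the KDM5 family, which removes H3K4me3 and H3K4me2.

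Of the 43 members tested, 10 were higher in the libraries labelled KO (23.3%), 3 were lower (6.98%) and 30 did not pass the threshold, an adjusted p under 0.05 from edgeR's quasi-likelihood test with Benjamini-Hochberg adjustment over all genes. Over all 14084 genes tested, 17.7% were called higher and 12.5% lower. Values are TMM-normalized CPM, counts scaled to the size of the library, unless another unit is named, changes are log2 fold changes (KO over WT) given with their standard error (SE), and totals ran from 12025403 to 15329427 counts per library. The largest rises were those of the demethylase *Kdm7a* and the H3K9 methyltransferase *Suv39h2*, followed by the Polycomb enzymes *Ezh1* and *Ezh2*. The falls were those of *Phf8*, *Phf2* and *Kdm6b*, and each was smaller than any of the rises just named. Changes of the members lay between -0.44 and 0.88 with a median of -0.01, beside a median of -0.02 over all genes, and 40 of the 43 (93.0%) lay within 0.5 of 0, beside 81.1% of all genes. The libraries of the 2 labels did not overlap for 19 members, 11 with every KO library above and 8 with every KO library below, which is 44.2% of the members beside 47.0% of all genes tested. No test was made of whether these shares differ from those of all genes, and the 3 falls rest on few genes, with between 1 and 6 called in the 13 alternatives. The counts also depend on the scaling. Scaled to 10 fibroblast marker genes, a setting added after seeing the data, 37 members were called higher and 0 lower, beside 8717 and 43 of all genes.

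**Figure D1:**
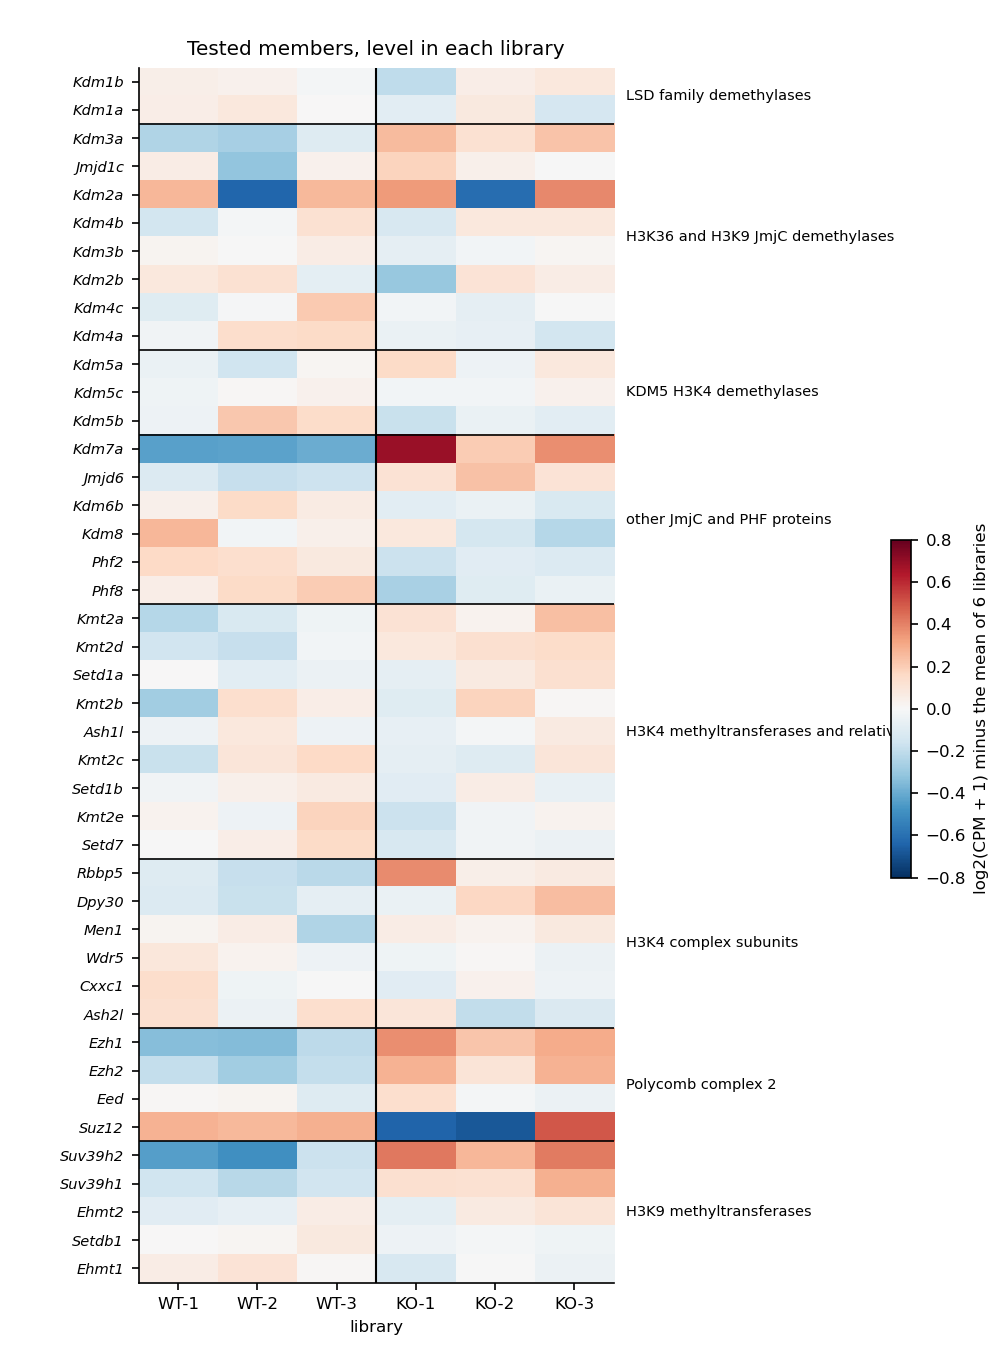
Level of each of the 43 tested members in each library, as log2(CPM + 1) minus the mean of that member over the 6 libraries (colour scale), grouped by role. The rows of *Kdm7a*, *Suv39h2*, *Ezh1* and *Ezh2* are low in all 3 WT libraries and high in all 3 KO libraries, while *Kdm2a* is low in replicate 2 of both labels and *Suz12* is low in KO-1 and KO-2.

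Marker genes of several cell types differed between the labels, and their values are given once here because they lie beside every change below. All 10 fibroblast markers were lower in the libraries labelled KO, with changes from -0.48 to -0.32 and a summed FPKM (fragments scaled to gene length and library depth) of 3090 to 3580 against 4240 to 4510. Of 10 endothelial markers, 9 were higher, with a median change of 2.43 and a summed FPKM of 211 to 310 against 42.6 to 43.8, and none was at 0. All 12 genes of cycling cells were higher, with a median of 0.69 and a summed FPKM of 167 to 181 against 101 to 103. Cardiomyocyte markers were lower in 7 of 8, with a summed FPKM of 353 to 391 against 476 to 492, and of 10 macrophage markers 5 were lower and 1 was higher. Of 5 mural cell markers tested, 3 were lower and 1, *Abcc9*, was higher (0.84), with a summed FPKM of 78.3 to 87.4 against 108 to 110. Of 5 neutrophil markers 3 were tested and 2 were higher, with a summed FPKM of 6.09 to 9.64 against 0.96 to 2.02. *Cd3e*, *Cd3d* and *Nkg7*, defining markers of T and natural killer cells, were at 0 in every library. In bulk RNA, fewer cells of a type and less RNA per cell cannot be told apart, and the part of these marker differences in the changes of the members was not tested.

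*Kdm5b*, the disrupted gene (ENSMUSG00000042207, chr1:134560171-134635285 in mm10, plus strand), was measured at 98.1, 107 and 105 CPM in KO-1, KO-2 and KO-3 and at 108, 129 and 123 CPM in WT-1, WT-2 and WT-3. Every KO library lay below every WT library, by a narrow margin between KO-2 and WT-1. The change was -0.22 (SE 0.073, 95% confidence interval -0.38 to -0.05), a fall to 0.861 of the WT level that did not pass the threshold (adjusted p = 0.0574 from edgeR). By quantitative PCR and immunoblot, the paper reports *Kdm5b* mRNA and protein as nearly absent from KO cardiac fibroblasts, in cells for which no MI is stated. The count here differs from that report, and the reason was not tested. The deposited counts are per gene and not per exon, and the level over the deleted bases was not measured here. The *Kdm5b* count does not check the label of the KO libraries, which are named by their labels throughout. The call depends on the settings: 3 of the 13 alternatives put *Kdm5b* past the threshold, namely the upper quartile in place of TMM, the replicate number as a block and leaving out WT replicate 1, and the change was -0.29 without WT replicate 1. Scaled to the fibroblast markers, an alternative added after seeing the data that moved the median of all genes to 0.40, the direction of *Kdm5b* turned, to 0.20 (adjusted p = 0.0462 from edgeR).

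The other KDM5 demethylases of the list, which act on the same H3K4 marks, did not pass the threshold. *Kdm5a* was at 108, 94.3 and 103 CPM in the KO libraries and at 93.7, 86.9 and 98.4 CPM in the WT libraries, with overlap and a change of 0.13 (SE 0.07, adjusted p = 0.211 from edgeR). *Kdm5c*, an X-linked member, was at 131, 131 and 136 CPM against 130, 134 and 136 CPM, a change of -0.01 with a 95% confidence interval of -0.12 to 0.10. The *Kdm5c* libraries of both labels thus spanned nearly the same narrow range. *Kdm5d*, the Y-linked gene of the family and not one of the 44, changed by -0.19 (SE 0.11, adjusted p = 0.213 from edgeR). As a share of the summed FPKM of these 4 genes, *Kdm5b* made up 22.1%, 24.2% and 22.9% in the KO libraries and 24.5%, 27.6% and 25.9% in the WT libraries, without overlap. The share of *Kdm5a* did not overlap either and lay the other way, at 24.3% ± 1.59 (SD, n = 3) in KO and 21.6% ± 1.45 (SD, n = 3) in WT, with every KO library above every WT library. Shares of 1 sum are not independent of each other. The share of *Kdm5c* overlapped, at 46.7% ± 0.241 (SD, n = 3) in KO and 45.8% ± 0.813 (SD, n = 3) in WT. For the *Kdm5b* share and for the *Kdm5a* share the exact two-sided permutation p was 0.1, which is the smallest p that 3 libraries against 3 allow, so that no single value can pass 0.05 by this test.

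To let the promoters of the disrupted gene and of the 3 members with the largest rises be read beside the values, the 250 bases before each start site are printed below, 5′ to 3′ on the strand of the gene, from RefSeq on GRCm38.p6, with every CG dinucleotide in capitals. *Kdm5b* is shown as chr1:134559928-134560177 on the plus strand, *Kdm7a* as chr6:39206774-39207023 on the minus strand, *Suv39h2* as chr2:3474987-3475236 on the minus strand and *Ezh1* as chr11:101226464-101226713 on the minus strand.
Kdm5b: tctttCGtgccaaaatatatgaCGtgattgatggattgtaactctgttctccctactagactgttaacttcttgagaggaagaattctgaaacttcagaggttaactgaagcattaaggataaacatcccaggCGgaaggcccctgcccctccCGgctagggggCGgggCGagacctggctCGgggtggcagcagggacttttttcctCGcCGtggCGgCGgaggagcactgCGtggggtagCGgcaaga
Kdm7a: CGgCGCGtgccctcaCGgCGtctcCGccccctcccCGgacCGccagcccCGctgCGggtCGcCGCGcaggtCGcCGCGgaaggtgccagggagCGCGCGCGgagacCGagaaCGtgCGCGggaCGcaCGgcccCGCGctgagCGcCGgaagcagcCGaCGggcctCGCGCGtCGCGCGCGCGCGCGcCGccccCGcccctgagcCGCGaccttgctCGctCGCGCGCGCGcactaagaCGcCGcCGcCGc
Suv39h2: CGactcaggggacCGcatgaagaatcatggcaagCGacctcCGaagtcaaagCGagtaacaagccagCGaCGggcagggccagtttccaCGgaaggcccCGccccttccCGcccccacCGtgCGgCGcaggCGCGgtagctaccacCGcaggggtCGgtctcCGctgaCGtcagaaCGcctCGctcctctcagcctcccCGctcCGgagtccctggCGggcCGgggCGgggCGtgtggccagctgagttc
Ezh1: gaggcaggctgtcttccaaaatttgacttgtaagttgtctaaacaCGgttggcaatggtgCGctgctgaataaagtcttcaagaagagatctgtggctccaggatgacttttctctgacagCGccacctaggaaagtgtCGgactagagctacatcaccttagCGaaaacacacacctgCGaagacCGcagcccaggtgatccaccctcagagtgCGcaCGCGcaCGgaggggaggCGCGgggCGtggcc
The printed stretches hold 13, 56, 27 and 14 CG dinucleotides in this order, so that the *Kdm7a* stretch is the densest of the 4 and those of *Kdm5b* and *Ezh1* hold the fewest. Windows of 300 bases, with 50 bases after the start, were found for 33 of the 44 members. Their median was 24 CG dinucleotides, beside 21 over the 10320 tested genes with a window, and 20 of the 33 lay at or above the median of tested genes. The *Kdm7a* window held 65 and that of *Phf2*, a member that fell, held 63, and no value of CG content was tested against the changes. The cyclic AMP response element TGACGTCA, searched on both strands, was present in 2 of the 33 windows, those of *Suv39h2* and *Phf8*, beside 3.27% of the windows of tested genes, and in the *Suv39h2* sequence above it begins 85 bases before the start. An E2F-like motif, TTTNNCGC on both strands, was present in 2 of the 33 (6.06%), those of *Ezh2* and *Suz12*, beside 8.35%. The CCAAT box, CCAAT on both strands, was present in 15 (45.5%) beside 38.4%. The hypoxia response core ACGTG was present in 9 (27.3%) beside 25.6%, and the AP-1 motif TGANTCA in 2 (6.06%) beside 5.21%. Only the first window of each gene was counted. Later windows held further matches, among them E2F-like in *Suv39h1*, AP-1 in *Kdm3a* and the hypoxia core in *Kdm4c*. A match is a description of the letters in these windows.

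The JmjC and PHF proteins outside the KDM2 to KDM5 families had 2 of 6 members higher (33.3%, beside 17.7% of all genes) and 3 lower (50.0%, beside 12.5%), and no test of these shares was made. *Kdm7a*, which removes methyl groups from H3K9 and H3K27, was at 61.7, 43.8 and 49.3 CPM in the KO libraries and at 27.8, 27.9 and 28.6 CPM in the WT libraries. The lowest KO library stood well above the highest WT library, with KO-1 highest of all, and the WT libraries were nearly equal. The change was 0.88 (SE 0.12, 1.83-fold, adjusted p = 0.00112 from edgeR), and it lay between 0.69 and 0.99 in the 13 alternatives. A transcript on the opposite strand, *4930599N23Rik*, shares 11690 bases with *Kdm7a*, but its mean count was 6.67 beside 552 for *Kdm7a*.

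*Phf8* and *Phf2* are the nearest relatives of *Kdm7a*, and both moved the other way. *Phf8*, an X-linked H3K9 demethylase that binds H3K4me3, was at 52.2, 58.6 and 60.5 CPM in KO and at 65.3, 70.0 and 72.4 CPM in WT. *Phf2*, a reader of H3K4me3 of the same family, was at 57.4, 60.6 and 59.8 CPM in KO and at 72.4, 71.0 and 68.4 CPM in WT. Neither gene showed overlap between the labels. The change of *Phf8* was -0.28 (SE 0.074, adjusted p = 0.0231 from edgeR), and 4 of the 13 alternatives lost the call: limma and the fits without KO replicate 1, WT replicate 2 or WT replicate 3, with adjusted p-values between 0.0598 and 0.0816. *Phf2* changed by -0.25 (SE 0.055, adjusted p = 0.01 from edgeR) and kept the call in all 13. *Kdm6b*, which removes H3K27me3 and so opposes Polycomb, was at 81.3, 83.3 and 79.3 CPM in KO and at 89.0, 96.4 and 90.3 CPM in WT. Its libraries did not overlap either, but the fall was small, -0.18 (SE 0.055, adjusted p = 0.0411 from edgeR), and 10 of the 13 alternatives lost the call, among them every one that left out a library. Where the libraries were instead scaled to the fibroblast markers, also the directions of these 3 genes turned, to 0.13 for *Phf8*, 0.16 for *Phf2* and 0.24 for *Kdm6b*, in a setting that moved the median of all genes to 0.40. Against the median of all genes their changes were the same within 0.01 in both scalings, at -0.26, -0.23 and -0.16 in the TMM fit.

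*Jmjd6*, a JmjC protein known as a lysyl hydroxylase of splicing factors, was at 68.4, 74.4 and 68.0 CPM in KO and at 58.5, 55.3 and 56.2 CPM in WT. All KO libraries were higher, with a change of 0.31 (SE 0.061, adjusted p = 0.00614 from edgeR), and all 13 alternatives kept the call. The remaining JmjC member of this group, *Kdm8*, was measured at low level and its change of -0.22 did not pass the threshold, with a 95% confidence interval of -0.58 to 0.14.

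**Figure D2:**
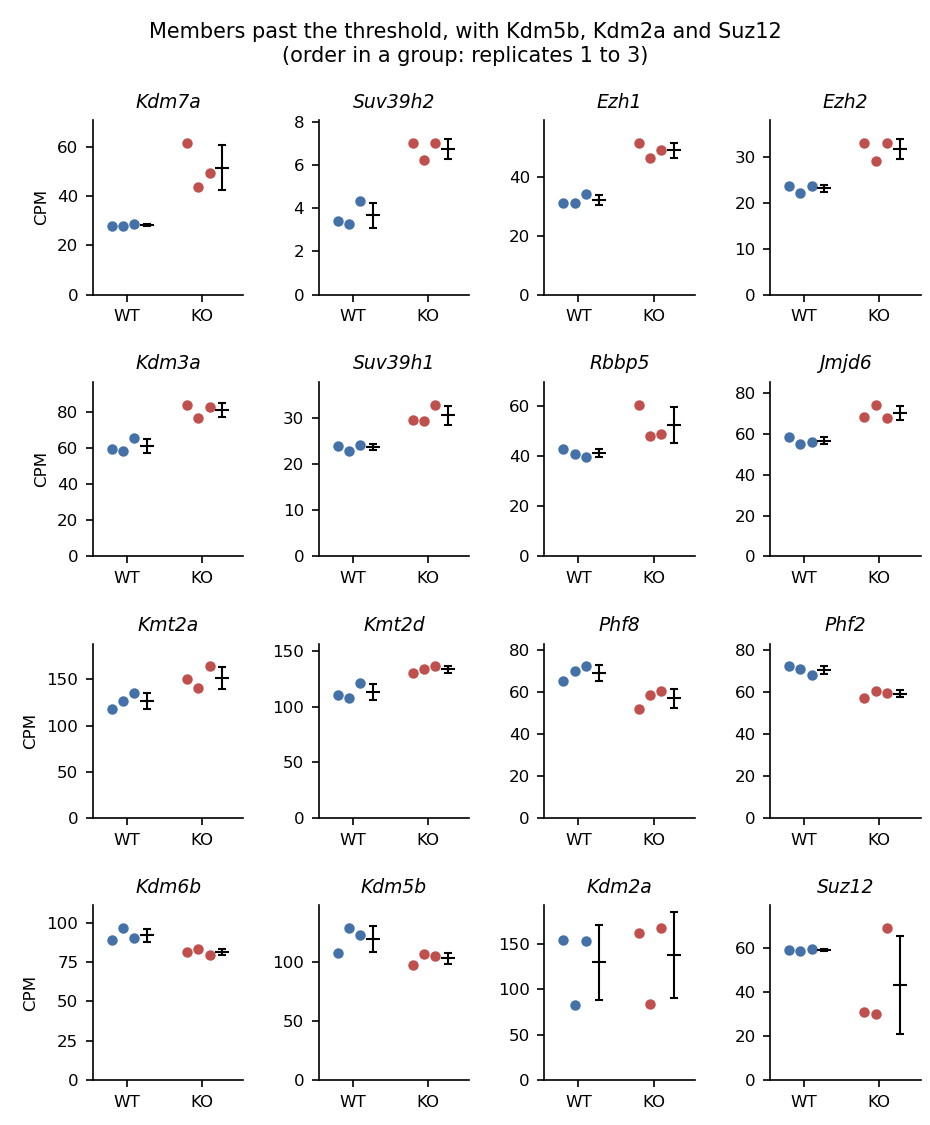
CPM of the 13 members past the threshold and of *Kdm5b*, *Kdm2a* and *Suz12* in every library (points, in the order of replicates 1 to 3 within a label), with the mean and SD of the 3 libraries beside them (black, vertical axes from 0). The KO and WT points are separate for all 13 members past the threshold, and those of *Kdm7a* lie at 43.8 to 61.7 against 27.8 to 28.6 CPM.

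Among the JmjC demethylases of H3K36 and H3K9 and the LSD enzymes, 10 of which were tested, 1 gene was called higher and none lower, beside 17.7% and 12.5% of all genes. *Kdm3a*, an H3K9 demethylase known to be induced by hypoxia, was at 84.1, 76.5 and 82.5 CPM in KO and at 59.4, 58.3 and 65.5 CPM in WT. The KO libraries lay above all WT libraries, and the change was 0.41 (SE 0.068, 1.33-fold, adjusted p = 0.00279 from edgeR), kept in all 13 alternatives. Its paralog *Kdm3b*, with the same substrate, was at 70.6, 72.9 and 74.9 CPM against 75.5, 74.1 and 77.3 CPM, with a change of -0.05 (95% confidence interval -0.18 to 0.07). The third gene of that family, *Jmjd1c*, changed by 0.14, or 0.03 without WT replicate 2, and did not pass. *Kdm4a*, *Kdm4b* and *Kdm4c*, demethylases of H3K9me3 and H3K36me3, changed by -0.18, 0.03 and -0.08, and of these *Kdm4a* had every KO library below every WT library without passing (adjusted p = 0.067 from edgeR), though it passed with the upper quartile and without WT replicate 1 (both 0.0319). *Kdm4d* stood at 0.409, 0.075 and 0 CPM in the KO libraries and at 0.07, 0.273 and 0 CPM in the WT libraries, where 3 counts amount to between 0.193 and 0.246 CPM, so that no difference was detectable at this depth. *Kdm1a* and *Kdm1b*, the flavin-dependent LSD demethylases of H3K4me1 and H3K4me2, changed by -0.09 and -0.04. *Luzp1* on the opposite strand shares 4241 bases with *Kdm1a*, with a mean count of 1890 beside 894. *Reep3*, also on the opposite strand, shares 864 bases with *Jmjd1c*, with a mean count of 1220 beside 1050. Whether the counting used the strand is not given, so that the values of *Kdm1a* and *Jmjd1c* are uncertain for this reason.

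*Kdm2a*, a demethylase of H3K36me2 that binds CpG islands, is named because its libraries stood apart within both labels, a choice made after its values were seen. It was at 162, 83.5 and 167 CPM in the KO libraries and at 154, 82.0 and 153 CPM in the WT libraries. Replicate 2 was thus near 83 CPM under both labels while the other 4 libraries were all above 150 CPM, and the highest library exceeded the lowest by 2.0-fold in KO and 1.87-fold in WT. The change was 0.09 with an SE of 0.30, the largest SE of any member, and the value says little about the genotype. *Kdm2b*, its paralog, showed no such step, at 17.5, 23.6 and 22.7 CPM in KO and 23.2, 23.8 and 20.6 CPM in WT, with a change of -0.08 and a highest library 1.35-fold above the lowest in KO and 1.16-fold in WT.

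Of the 9 H3K4 methyltransferases and relatives, 2 were higher (22.2%, beside 17.7% of all genes) and none was lower. The group was set by gene name and holds *Ash1l*, which acts on H3K36, and *Kmt2e*, a KMT2 relative for whose SET domain no methyltransferase activity is established. *Kmt2a* (MLL1), which acts at the Hox genes among others, was at 150, 141 and 164 CPM in KO and at 118, 127 and 135 CPM in WT. *Kmt2d* (MLL4), the main writer of H3K4me1 at enhancers, was at 130, 134 and 136 CPM in KO and at 110, 108 and 121 CPM in WT. Both had every KO library above every WT library, though KO-2 and WT-3 were close for *Kmt2a*. The rise was 0.26 for *Kmt2a* (SE 0.074, adjusted p = 0.0309 from edgeR) and 0.24 for *Kmt2d* (SE 0.059, adjusted p = 0.0171 from edgeR), and the call was lost in 5 and 3 of the 13 alternatives, respectively. Their paralogs did not pass. *Kmt2b* (MLL2) was at 69.7, 84.5 and 75.2 CPM against 61.4, 81.9 and 77.6 CPM, a change of 0.05 (95% confidence interval -0.21 to 0.32). *Kmt2c* (MLL3) was at 44.5, 43.4 and 50.0 CPM against 41.3, 50.2 and 52.3 CPM, a change of -0.06 (95% confidence interval -0.29 to 0.17). Both overlapped between the labels. *Setd1a* and *Setd1b*, the writers of most H3K4me3, changed by 0.08 and -0.06, and *Kmt2e*, *Setd7* and *Ash1l* by -0.11, -0.14 and 0.00. *Setd7*, a monomethyltransferase with many substrates outside histones, had all KO libraries below all WT libraries but did not pass (adjusted p = 0.103 from edgeR), except with the upper quartile (0.0457).

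Of the 6 subunits shared by or particular to the H3K4 methyltransferase complexes, 1 was higher (16.7%, beside 17.7% of all genes). *Rbbp5*, a core subunit that joins WDR5 and ASH2L to the catalytic subunit, was at 60.6, 48.0 and 48.8 CPM in KO and at 43.0, 40.7 and 39.8 CPM in WT. KO-1 was the highest library by a wide gap, yet KO-2 and KO-3 were above all WT libraries too. The rise was 0.35 (SE 0.097, adjusted p = 0.0278 from edgeR), and without any 1 of the WT libraries it no longer passed, with adjusted p-values of 0.0528, 0.0805 and 0.0896 from edgeR. *Dpy30*, the smallest core subunit, was at 17.5, 20.6 and 21.8 CPM in KO and at 16.8, 16.0 and 17.3 CPM in WT. Its libraries did not overlap, but KO-1 was close to WT-3, and the change of 0.26 (SE 0.10) did not pass (adjusted p = 0.0973 from edgeR), except with limma (0.0395) and without KO replicate 1 (0.0366). *Ash2l* and *Wdr5* of the same core changed by -0.15 and -0.05, *Men1*, which encodes menin, by 0.10 (0.01 without WT replicate 3), and *Cxxc1*, which guides the SETD1 complexes to unmethylated CpG islands, by -0.07, all with overlap between the labels. *Cxxc1* was at 56.3, 61.4 and 58.3 CPM in KO and at 66.4, 58.6 and 59.8 CPM in WT.

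**Figure D3:**
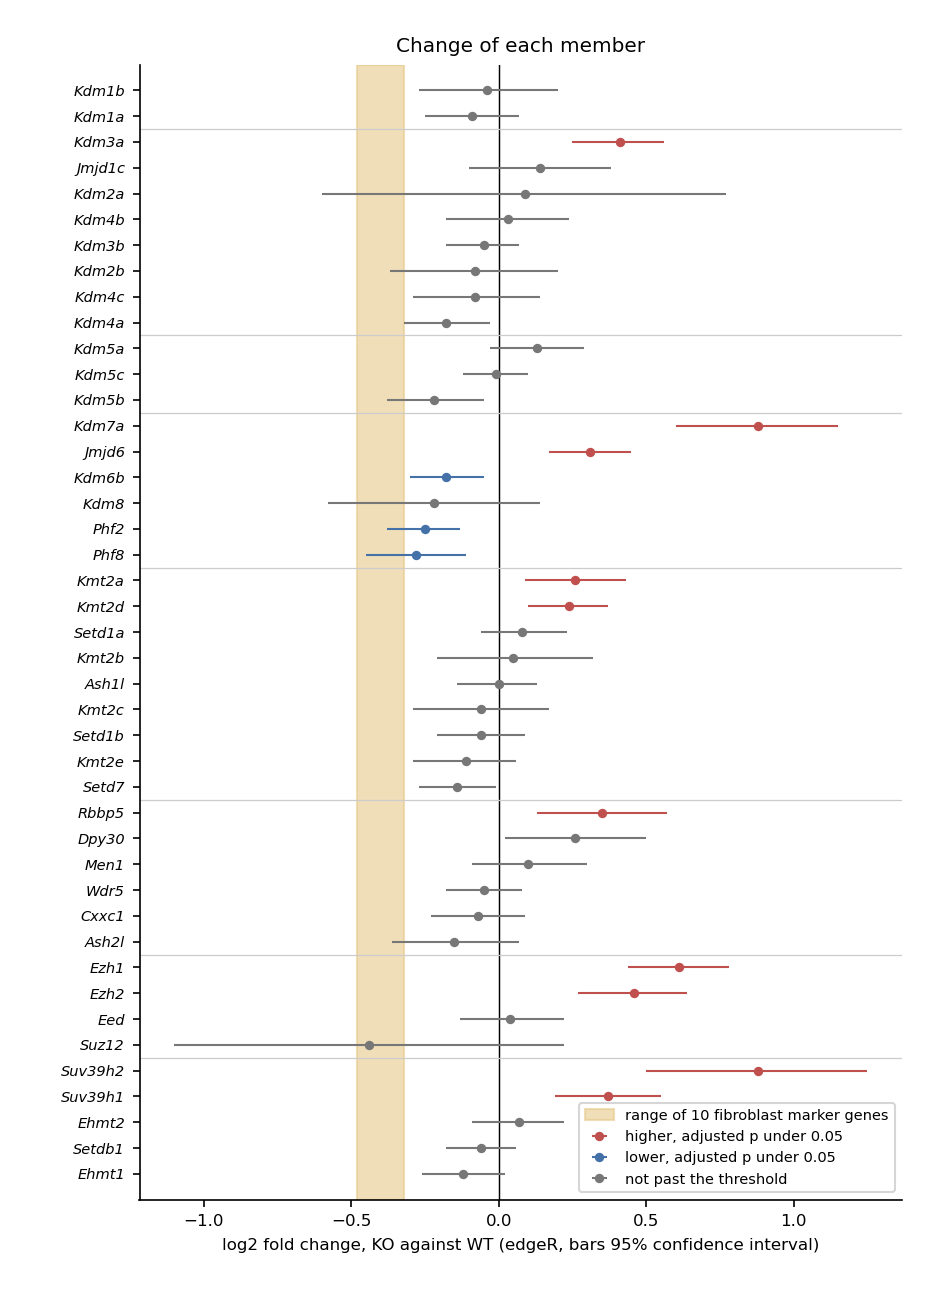
Log2 fold change of each tested member, KO against WT, with its 95% confidence interval (horizontal bars), coloured by the edgeR call and grouped by role in the order of the heat map. The shaded band is the range of the 10 fibroblast marker genes, from -0.48 to -0.32, and *Suz12* is the single member whose value lies in it.

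In Polycomb repressive complex 2, both catalytic subunits rose, 2 of 4 members (50.0%, beside 17.7% of all genes). *Ezh1*, the form that prevails in resting cells, was at 51.7, 46.6 and 49.1 CPM in KO and at 31.2, 31.1 and 34.3 CPM in WT. *Ezh2*, the form known from dividing cells, was at 33.2, 29.3 and 33.1 CPM in KO and at 23.7, 22.2 and 23.7 CPM in WT. For each gene the lowest KO library stood well above the highest WT library. The change of *Ezh1* was 0.61 (SE 0.073, 1.53-fold, adjusted p = 5.85e-04 from edgeR) and that of *Ezh2* was 0.46 (SE 0.081, 1.37-fold, adjusted p = 0.00372 from edgeR), and both calls were kept in all 13 alternatives. *Eed*, the subunit that reads H3K27me3, was at 42.9, 38.5 and 37.7 CPM in KO and at 39.3, 39.7 and 36.3 CPM in WT, with a change of 0.04 (95% confidence interval -0.13 to 0.22).

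*Suz12*, the scaffold subunit of the complex, is named because its KO libraries stood apart, again a choice made after its values were seen. It was at 30.8, 29.9 and 68.8 CPM in the KO libraries and at 59.0, 58.3 and 59.2 CPM in the WT libraries. KO-1 and KO-2 were near 30 CPM and KO-3 was the highest of all 6 libraries, while the WT libraries were within 1.01-fold of each other. The change of -0.44 had an SE of 0.29 (adjusted p = 0.285 from edgeR). Without KO replicate 3 the change was -0.95 (adjusted p = 2.4e-04 from edgeR), so that 1 library decides the call. *Kdm2a* and *Suz12* were the only members with a mean of at least 20 CPM whose highest library exceeded the lowest of the same label by over 1.5-fold. Of all 7851 genes at that level, 338 (4.31%) did so in KO and 251 (3.2%) in WT, and the cause of these steps was not tested.

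The H3K9 methyltransferases split between the SUV39H pair, which was higher (2 of 5, 40.0%, beside 17.7% of all genes), and the remaining 3 enzymes, which did not pass. *Suv39h1*, the X-linked writer of H3K9me3 at pericentric heterochromatin, was at 29.5, 29.3 and 32.9 CPM in KO and at 23.9, 22.9 and 24.1 CPM in WT. *Suv39h2*, its autosomal counterpart, was at 7.04, 6.23 and 7.03 CPM in KO and at 3.43, 3.28 and 4.34 CPM in WT. Neither gene showed overlap between the labels, and the gap between the lowest KO and the highest WT library was wide for both. The rise was 0.37 for *Suv39h1* (SE 0.079, 1.3-fold, adjusted p = 0.00849 from edgeR) and 0.88 for *Suv39h2* (SE 0.16, 1.84-fold, adjusted p = 0.00479 from edgeR), and both calls were kept in all 13 alternatives. On the log2(FPKM + 1) scale, which shrinks changes of low genes, the value of *Suv39h2* was 0.34. The *Suv39h2* value is uncertain for another reason: *Dclre1c* on the opposite strand overlaps it over 8316 bases, had a mean count of 149 beside 72.7 for *Suv39h2*, and itself rose by 0.62 (SE 0.18, adjusted p = 0.0307 from edgeR). The libraries keep the strand, but whether the counting used it is not given in the sources used here. *Setdb1*, which silences retroelements with TRIM28, changed by -0.06, and *Ehmt1* and *Ehmt2*, the H3K9me2 writers GLP and G9a, by -0.12 and 0.07. For *Setdb1* and *Ehmt1* the KO libraries all lay below the WT libraries, without passing the threshold.

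Levels between members were compared per length, as FPKM. The highest were *Cxxc1* with 22.7 ± 0.87 (SD, n = 3) in KO and 23.2 ± 1.65 (SD, n = 3) in WT, *Dpy30* with 20.7 ± 2.23 and 16.9 ± 0.662, and *Eed* with 15.9 ± 1.19 and 15.1 ± 0.723. The lowest were *Kdm4d* with 0.034 and 0.0234, *Suv39h2* with 0.818 ± 0.0604 and 0.435 ± 0.0679, and *Kdm2b* with 1.14 ± 0.172 and 1.19 ± 0.089. In the WT libraries *Eed* and *Wdr5* (15.0 ± 0.703) differed by less than their spread. The gene length implied by the deposited FPKM was 0.96 to 3.7 times that of the longest annotated transcript of the member, with a median of 1.82, so that this order depends on the lengths the authors used. A comparison of the labels for 1 gene does not.

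Ratios of paralogs within a library free the comparison from the scaling of the libraries, and 14 pairs were compared. Since gene lengths set the size of a ratio, only its difference between the labels is read, and not which paralog is higher. In 6 of the 14 (42.9%) the KO and WT libraries did not overlap, beside 47.0% of all genes tested one by one. *Suv39h1* over *Suv39h2* differed most, with 3.6, 4.05 and 4.02 in KO against 5.98, 6.0 and 4.78 in WT, a log2 difference of -0.52. This ratio rests on the *Suv39h2* count, which is uncertain because of the overlap with *Dclre1c* given above. *Kdm3a* over *Kdm3b* was higher in KO, with 0.648, 0.571 and 0.599 against 0.428, 0.428 and 0.461, a log2 difference of 0.47. The KO ratios of these pairs lay clear of the WT ratios. *Kdm5b* over *Kdm5a* was 0.85, 1.06 and 0.955 in KO and 1.08, 1.38 and 1.17 in WT (log2 difference -0.34). The remaining separate pairs were *Kmt2c* over *Kmt2d* (-0.30), *Kdm5b* over *Kdm5c* (-0.20) and *Ezh2* over *Ezh1* (-0.15). The ratio of *Ezh2* to *Ezh1* was 0.798 in KO and 0.888 in WT as geometric means. The ratio of *Phf2* to *Phf8*, which fell together, was 2.68 and 2.63 and overlapped between the labels. By exact two-sided permutation tests each of the 6 pairs had p = 0.1, the smallest possible, and an adjusted p of 0.233 over the 14 pairs, so that none passes.

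**Figure D4:**
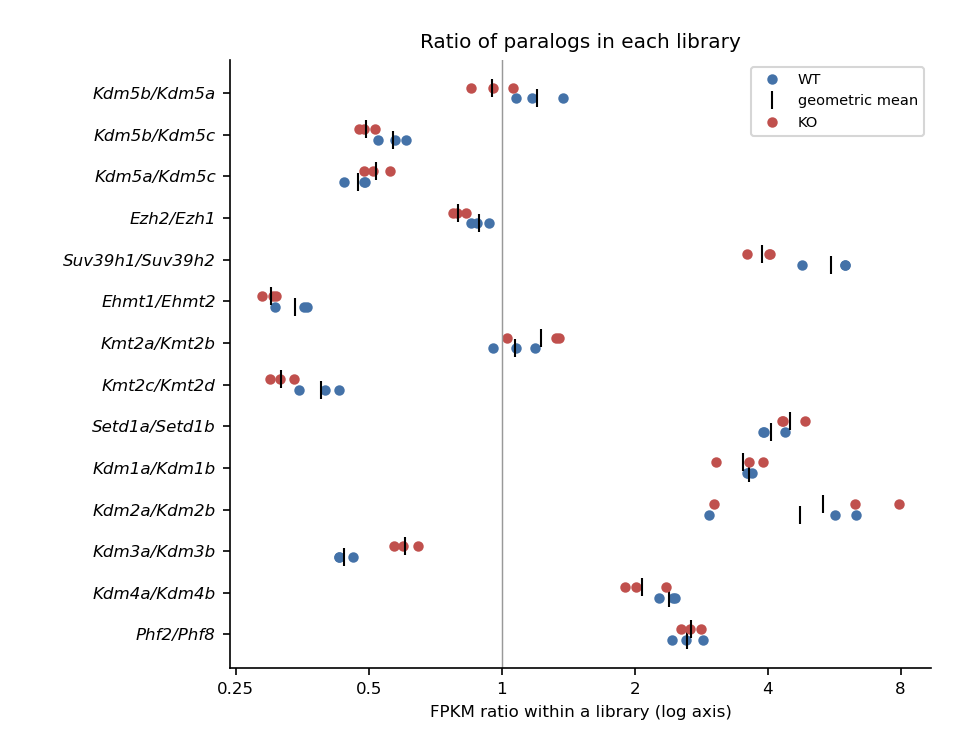
FPKM ratio of 14 paralog pairs within each library (points, log axis), with the geometric mean of the 3 libraries of each label (vertical bars). The KO points of *Suv39h1*/*Suv39h2*, between 3.6 and 4.05, lie left of the WT points, between 4.78 and 6.0, and those of *Kdm3a*/*Kdm3b* lie right of them, whereas *Kdm2a*/*Kdm2b* spreads widely within both labels.

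Another 91 genes of histone methylation, the partners of these enzymes and the remaining lysine methyltransferases and demethylases, were all tested, and 16 were higher (17.6%, beside 17.7% of all genes) and 3 lower (3.30%, beside 12.5%), with a median change of 0.01. Of 25 Polycomb partners, 6 were higher (24.0%) and none was lower, and no list was tested against all genes. The largest rise among them was that of *Phf19*, an accessory subunit that brings the complex to H3K36-methylated chromatin, at 10.2, 7.88 and 8.38 CPM in KO against 5.25, 3.96 and 4.34 CPM in WT, a change of 0.96 (SE 0.17, adjusted p = 0.00351 from edgeR). *Rybp*, *Cbx6*, *Pcgf5*, *Bmi1* and *Rbbp4* were the others that rose, by 0.93, 0.85, 0.42, 0.21 and 0.15.

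Of 11 partners and readers of H3K9 methylation, 4 rose (36.4%, beside 17.7% of all genes) and 1 fell (9.09%, beside 12.5%). *Uhrf1*, which links H3K9 methylation to the upkeep of DNA methylation in dividing cells, was at 76.0, 73.2 and 82.3 CPM in KO against 41.3, 39.7 and 45.1 CPM in WT, a change of 0.88 (SE 0.073, adjusted p = 9.1e-05 from edgeR). The fall was that of *Trim28*, the corepressor that recruits SETDB1, from 260, 249 and 273 CPM in WT to 212, 233 and 223 CPM in KO, by 0.23 on the log2 scale (SE 0.055, adjusted p = 0.0166 from edgeR). Among the readers that rose, *Cbx5* and *Cbx1*, which encode heterochromatin protein 1 forms, changed by 0.60 and 0.33. The 12 genes of cycling cells, with a median of 0.69, moved in the same libraries as *Ezh2*, *Suv39h1*, *Suv39h2* and *Uhrf1*, and their part in these changes was not tested.

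Of 25 other lysine methyltransferases, 6 rose (24.0%, beside 17.7% of all genes) and 1 fell (4.0%, beside 12.5%). The largest rise was that of *Prdm9*, an H3K4 methyltransferase known from meiosis, at 6.47, 5.03 and 5.61 CPM in KO against 3.01, 3.96 and 1.78 CPM in WT, a change of 0.96 with an SE of 0.27 (adjusted p = 0.028 from edgeR). The fall was that of *Prdm2*, from 75.8, 80.0 and 77.3 CPM in WT to 61.1, 66.0 and 64.3 CPM in KO, by 0.28 on the log2 scale (SE 0.056, adjusted p = 0.00653 from edgeR). Of 10 other demethylases and JmjC proteins, none rose and *Hr*, which encodes the JmjC corepressor hairless, fell from 29.5, 32.4 and 29.0 CPM in WT to 16.9, 23.0 and 24.0 CPM in KO, by 0.51 on the log2 scale (SE 0.13, adjusted p = 0.0199 from edgeR). *Kdm6a*, the X-linked H3K27 demethylase, and *Uty*, its Y-linked counterpart, changed by 0.22 and -0.29 without passing. None of the 10 partners of the H3K4 complexes and none of the 10 partners of *Kdm1a* in the CoREST complex passed the threshold.

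**Figure D5:**
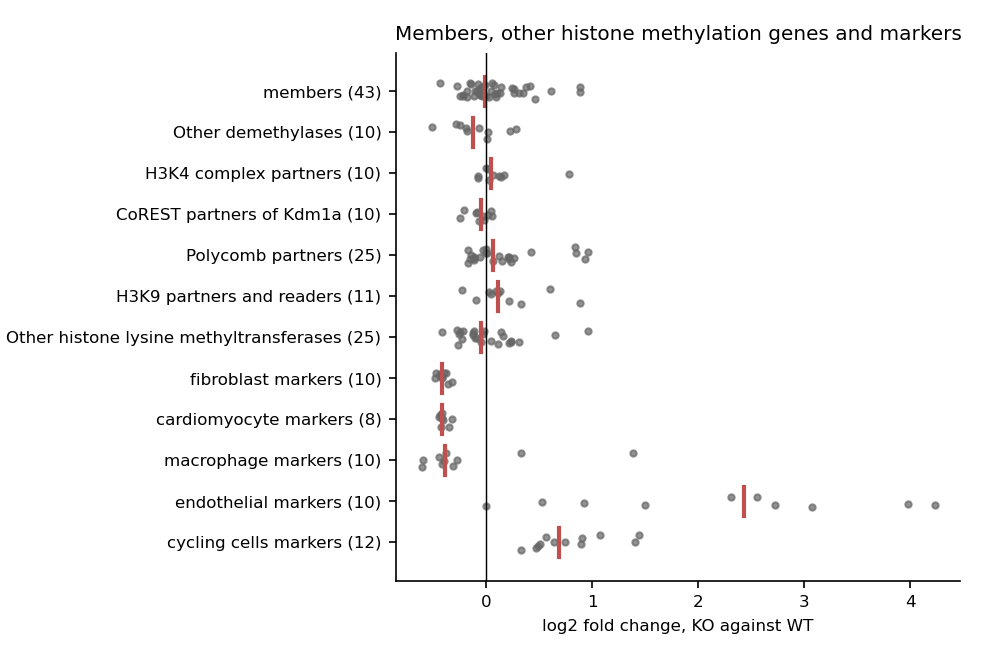
Log2 fold change, KO against WT, of each tested gene (points) in the 43 members, the lists of other histone methylation genes and the marker lists, with the number of genes in parentheses and the median as a red bar. The members centre on -0.01, the fibroblast and cardiomyocyte markers on -0.42, the cycling genes on 0.69 and the endothelial markers on 2.43.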

How the data were processed

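The authors mapped paired-end reads of strand-specific libraries to mm10 with HISAT2. They deposited whole-number counts per gene and library, without normalization, and FPKM values, obtained from the counts by scaling to the length of each gene and the depth of each library. GRCm38.p4 and edgeR are also named in the submitters' processing notes. The counting tool, the annotation release and the strand setting are not given in the sources used here.

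From the deposited counts, genes that passed filterByExpr were fitted in edgeR 4.0.16 (R 4.3.3) with TMM factors and the quasi-likelihood functions glmQLFit and glmQLFTest, with all 6 libraries and no covariate. An adjusted p under 0.05 over the 14084 genes was called (Benjamini-Hochberg). The biological coefficient of variation between replicates was 10.9%, and 22.4% to 32.2% of genes differed between replicates at an unadjusted p under 0.05, so that none was a duplicate. The first principal component held 73.8% of the variance and separated the labels. With 3 libraries per label, precision rests on that number.

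Single values were compared with exact two-sided permutation tests (scipy 1.17.1). In the 13 alternatives, the filter was dropped or set to a mean CPM of 1 or more, TMM was replaced by the upper quartile or by library size, DESeq2 1.42.0 or limma 3.58.1 (on log2(FPKM + 1)) took the place of edgeR, replicate numbers entered as a block, or 1 library at a time was left out. Scaling to the 10 fibroblast markers was added after seeing the data. GENCODE M21, matched by gene identifier, gave the transcript lengths, and the coordinates deposited with the counts gave the overlaps. RefSeq on GRCm38.p6 gave the promoters. The first window of a gene was used. Scripts were first tested on simulated data. Python 3.11.15 with matplotlib 3.10.9 was used for the figures.

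The members and lists were chosen with earlier results of these data known. Named with values were *Kdm5b*, *Kdm5a* and *Kdm5c*, every member past the threshold, their paralogs among the 14 pairs, and the 3 highest and 3 lowest members by FPKM. Of the lists of other genes, the largest rise and fall past the threshold were named in full.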

Additional observations from a re-analysis of the deposited data

How the results depend on the processing

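Over the 13 alternatives, 502 of 559 member values kept their direction and their side of the threshold, 25 lost the call and 9 gained one, the latter values of *Kdm4a*, *Kdm5b*, *Setd7*, *Dpy30* and *Suz12*. The other 23 changed sign, all of them values of 10 members that passed neither with nor without the alternative and whose change was at most 0.09 in size. With a library left out these ranged from -0.09 to 0.06 for *Kdm1b*, -0.16 to 0.36 for *Kdm2a*, -0.15 to 0.04 for *Kdm2b*, -0.04 to 0.10 for *Kdm4b*, -0.14 to 0.02 for *Kdm4c*, -0.03 to 0.01 for *Kdm5c*, -0.06 to 0.14 for *Kmt2b*, -0.16 to 0.01 for *Kmt2c*, -0.04 to 0.04 for *Ash1l* and -0.01 to 0.09 for *Eed*. *Kdm4b* was at -0.01 with the upper quartile, and *Kdm5c* and *Ash1l* were both at 0.03 with library size and at 0.02 and 0.03 with limma. *Kdm3a*, *Kdm7a*, *Jmjd6*, *Phf2*, *Ezh1*, *Ezh2*, *Suv39h1* and *Suv39h2* passed in all 13. With 1 library left out, the change of none of the 13 called members moved by more than 1.5 times, while that of 25 of the 30 members not called did. This limit is relative to the change itself, so that a change near 0 passes it with a small shift. *Ash1l*, from -0.04 to 0.04, and *Kdm5c*, from -0.03 to 0.01, are counted for this reason. The 2 counts therefore do not compare how far called and uncalled members depend on single libraries. The number of members called lower, 3, was 6 with the upper quartile and 1 with limma on log2(FPKM + 1), and it ranged from 1 to 4 when a library was left out. It was 1 without KO replicate 1, without WT replicate 2 or without WT replicate 3. Members called higher ranged from 7 to 10 in the same runs. Of all genes, those called lower ranged from 1131 to 1614 when a library was left out, with 1131 without KO replicate 3, and those called higher from 2013 to 2508. Runs with a library left out also hold fewer libraries, and the cause of these shifts was not tested.

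The replicate block gave 2316 genes higher and 1591 lower, with 10 members higher and 4 lower, and of the members it changed only the call of *Kdm5b*, to -0.21 with an adjusted p of 0.0271 from edgeR. The labels do not say whether the numbers pair the samples. Deviations of same-numbered libraries correlated at 0.0168, 0.0172 and 0.0307, and those of differently numbered libraries at -0.0155 to -0.00291. Each library thus correlated best with its own number, as a hint from the data and not the design. Correlations this small cannot decide whether the libraries are paired.

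Scaling to the fibroblast markers moved the median of all genes from -0.02 to 0.40, called 8717 genes higher and 43 lower, and called 37 members higher and 0 lower. Of the members 22 changed sign, to 0.32 for *Kdm1a*, 0.37 for *Kdm1b*, 0.33 for *Kdm2b*, 0.36 for *Kdm3b*, 0.24 for *Kdm4a*, 0.34 for *Kdm4c*, 0.20 for *Kdm5b*, 0.41 for *Kdm5c*, 0.24 for *Kdm6b*, 0.19 for *Kdm8*, 0.16 for *Phf2*, 0.13 for *Phf8*, 0.35 for *Kmt2c*, 0.30 for *Kmt2e*, 0.35 for *Setd1b*, 0.27 for *Setd7*, 0.41 for *Ash1l*, 0.27 for *Ash2l*, 0.36 for *Wdr5*, 0.34 for *Cxxc1*, 0.35 for *Setdb1* and 0.29 for *Ehmt1*. Of these *Kdm8*, *Phf2*, *Phf8* and *Ash2l* did not pass the threshold there. Relative to the median of all genes, no member moved by more than 0.01, since this scaling adds nearly the same amount to every gene. Floors cover counting error alone, tests rest on 3 libraries per label, and *Kdm4d* is too low for a comparison.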
